A study of Homo sapiens with 6 samples.

Results

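CDKN2A, CDKN2B, MTAP and SMAD4 are genes of the 2 tumour suppressor regions, 9p21 and 18q21, that are frequently altered in pancreatic cancer. They were taken by gene symbol, with no measured value used, and make up 4 of the 27408 genes and 8 of the 59128 RefSeq transcripts in the table. Messenger RNA was sequenced in PANC-1 and MIA-PaCa2, established human pancreatic cancer cell lines. In each line there was 1 library overexpressing ESRP1, 1 overexpressing ESRP2, and 1 carrying the LPCX control, so the 6 libraries hold 3 of PANC-1 and 3 of MIA-PaCa2. ESRP1 and ESRP2 are epithelial splicing regulators, and the study asked what they do in this cancer. All cells were grown with 10% fetal bovine serum, and whether a construct line is a clone is not given in the sources used here. Values are TPM, transcript abundances per length that add up to the same total in every library. The 3 libraries of a line differ in construct, so a spread over them (SD, n = 3) is a spread over constructs and not over repeats of a condition.

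CDKN2A encodes p16INK4a, which inhibits CDK4 and CDK6 and so keeps the RB protein active, and from a separate first exon p14ARF, which binds MDM2 and stabilises p53. CDKN2B, its neighbour, encodes p15INK4b, a further CDK4 and CDK6 inhibitor that TGF-beta induces. MTAP lies beside them and encodes methylthioadenosine phosphorylase, which returns the by-product of polyamine synthesis to the methionine pool, and its substrate inhibits PRMT5. SMAD4 is the common partner of the receptor-regulated SMADs of TGF-beta and BMP signalling. In pancreatic tumours CDKN2A is a frequent target of homozygous deletion, which often takes MTAP and CDKN2B with it, and SMAD4 is lost in many. DNA was not measured here, so the values are RNA levels alone.

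Before the members are described, the labels were checked on the overexpressed genes. ESRP1 had 491 TPM in PANC-1 ESRP1 and 367 TPM in MIA-PaCa2 ESRP1, and at most 0.261 TPM in any other library. ESRP2 had 308 TPM in PANC-1 ESRP2 and 197 TPM in MIA-PaCa2 ESRP2. In the LPCX libraries ESRP2 had 34.8 TPM in PANC-1 and 0.0704 TPM in MIA-PaCa2, so the lines differ in their own ESRP2. Epithelial and ductal markers summed to 1916 to 2121 TPM in PANC-1 and 3529 to 4383 TPM in MIA-PaCa2, with 7 and 4 of the 8 genes at 1 TPM or more in every library of the line. EPCAM was listed at 0 in every MIA-PaCa2 library, and INS, GCG and SST were listed at 0 in all 6 libraries. Acinar, leukocyte and endothelial markers each summed to 3.20 TPM or less in every library. Fibroblast markers were not low throughout, at 66.7 to 108 TPM in PANC-1 and 0.524 to 0.879 TPM in MIA-PaCa2. Of these 4 genes, 1 was at 1 TPM or more in every PANC-1 library. Each library held 10578 to 10932 genes at 5 TPM or more, and none of 10 housekeeping genes was listed at 0. The number of reads behind the values is unknown.

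The start regions of the members are shown because the lines differed in MTAP and SMAD4 while CDKN2A and CDKN2B were near 0 in both. The RefSeq sequences (GRCh38.p14) run from 250 bases before the transcription start to 20 bases after it, 5′ to 3′ on the strand of the gene. Capitals mark the GC box, GGGCGG on either strand (CCGCCC on the other), the letters that transcription factors of the Sp family are known to bind. MTAP lies on the plus strand at chr9:21802386-21802655, CDKN2A on the minus strand at chr9:21995305-21995574 for its upstream start and chr9:21974838-21975107 for its downstream start, CDKN2B on the minus strand at chr9:22009286-22009555, and SMAD4 on the plus strand at chr18:51029963-51030232. The upstream start of CDKN2A is on the side of the p14ARF exon and the downstream start on that of p16INK4a.
MTAP: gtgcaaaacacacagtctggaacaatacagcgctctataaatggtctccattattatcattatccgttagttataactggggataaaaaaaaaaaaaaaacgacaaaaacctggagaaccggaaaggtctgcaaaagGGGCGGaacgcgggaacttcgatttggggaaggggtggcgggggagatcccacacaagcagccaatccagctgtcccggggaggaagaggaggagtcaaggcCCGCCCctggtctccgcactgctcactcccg
CDKN2A upstream: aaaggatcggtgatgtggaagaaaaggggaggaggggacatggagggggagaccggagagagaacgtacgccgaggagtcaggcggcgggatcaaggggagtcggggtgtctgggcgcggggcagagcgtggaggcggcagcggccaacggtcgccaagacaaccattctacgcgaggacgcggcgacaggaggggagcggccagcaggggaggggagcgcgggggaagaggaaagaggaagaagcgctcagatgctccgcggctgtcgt
CDKN2A downstream: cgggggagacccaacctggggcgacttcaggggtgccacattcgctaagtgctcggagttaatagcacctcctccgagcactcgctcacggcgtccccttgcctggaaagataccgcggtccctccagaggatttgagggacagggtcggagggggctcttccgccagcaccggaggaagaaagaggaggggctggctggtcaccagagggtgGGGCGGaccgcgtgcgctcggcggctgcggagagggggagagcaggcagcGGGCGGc
CDKN2B: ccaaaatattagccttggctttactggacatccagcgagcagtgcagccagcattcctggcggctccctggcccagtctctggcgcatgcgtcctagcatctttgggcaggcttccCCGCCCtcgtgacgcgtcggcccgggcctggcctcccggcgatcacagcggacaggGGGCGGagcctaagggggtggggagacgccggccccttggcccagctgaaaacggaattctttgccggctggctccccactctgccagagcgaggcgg
SMAD4: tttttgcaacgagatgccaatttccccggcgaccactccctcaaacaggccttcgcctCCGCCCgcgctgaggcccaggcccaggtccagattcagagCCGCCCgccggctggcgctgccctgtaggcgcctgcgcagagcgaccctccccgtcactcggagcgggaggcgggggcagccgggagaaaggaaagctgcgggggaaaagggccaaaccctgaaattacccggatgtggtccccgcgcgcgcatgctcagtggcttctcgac
The MTAP, CDKN2A downstream, CDKN2B and SMAD4 windows each hold 2 GC boxes, and the CDKN2A upstream window holds 0. A GC box was found in 43.7% of 35116 RefSeq promoters of the same length. CG dinucleotides number 13 in the MTAP window, against 27 in CDKN2A upstream, 22 in CDKN2A downstream, 20 in CDKN2B and 26 in SMAD4, and the median promoter holds 12. These letters are a description of the windows, and no binding or methylation was measured.

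CDKN2A RNA was at or near 0 in both lines and under every construct. Its level was 0 TPM in PANC-1 ESRP1, 0.0842 TPM in PANC-1 ESRP2 and 0 TPM in PANC-1 LPCX, against 0.0850 TPM in MIA-PaCa2 ESRP1, 0.0925 TPM in MIA-PaCa2 ESRP2 and 0 TPM in MIA-PaCa2 LPCX. The lines overlapped, and 3 of the 6 libraries were listed at 0. All of this level was assigned to NM_058195, the p14ARF transcript. NM_000077, which encodes p16INK4a, and the remaining transcripts NM_058197 and NM_001195132 were listed at 0 in all 6 libraries. An exact two-sided permutation test of PANC-1 against MIA-PaCa2 gave p = 0.4, where 3 libraries against 3 cannot go below 0.1. CDKN2A did not reach the 5 TPM in 2 libraries needed for the test across genes, so it has no fold change.

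CDKN2B was lower still. It was listed at 0 in PANC-1 ESRP1, PANC-1 ESRP2 and all 3 MIA-PaCa2 libraries, and had 0.0198 TPM, in transcript NM_004936, in PANC-1 LPCX. The exact two-sided permutation p between the lines was 1. With a single library above 0 every split gives the same difference, so this p was fixed in advance and says nothing about the lines. Levels of 0 in every library are not rare in this table, where 4698 genes (17.1%) were listed at 0 in all 6.

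CDKN2B-AS1, the long noncoding RNA ANRIL, is transcribed on the opposite strand across CDKN2B and past the upstream start of CDKN2A. It had 0.783 TPM in PANC-1 ESRP1, 0.671 TPM in PANC-1 ESRP2 and 0.849 TPM in PANC-1 LPCX, against 0.644, 0.849 and 0.697 TPM in MIA-PaCa2 ESRP1, ESRP2 and LPCX. The ranges of the lines overlapped, and every library held more CDKN2B-AS1 than CDKN2A and CDKN2B together. Most of it was assigned to NR_047532, which GENCODE release 29 draws with 14 exons at chr9:21994791-22120646. Whether reads were assigned by strand is not given in the sources used here, so reads of CDKN2A or CDKN2B and of this antisense gene may not be told apart. CDKN2A-AS1, at the other end of CDKN2A, was listed at 0 in all 6 libraries.

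**Figure D1:**
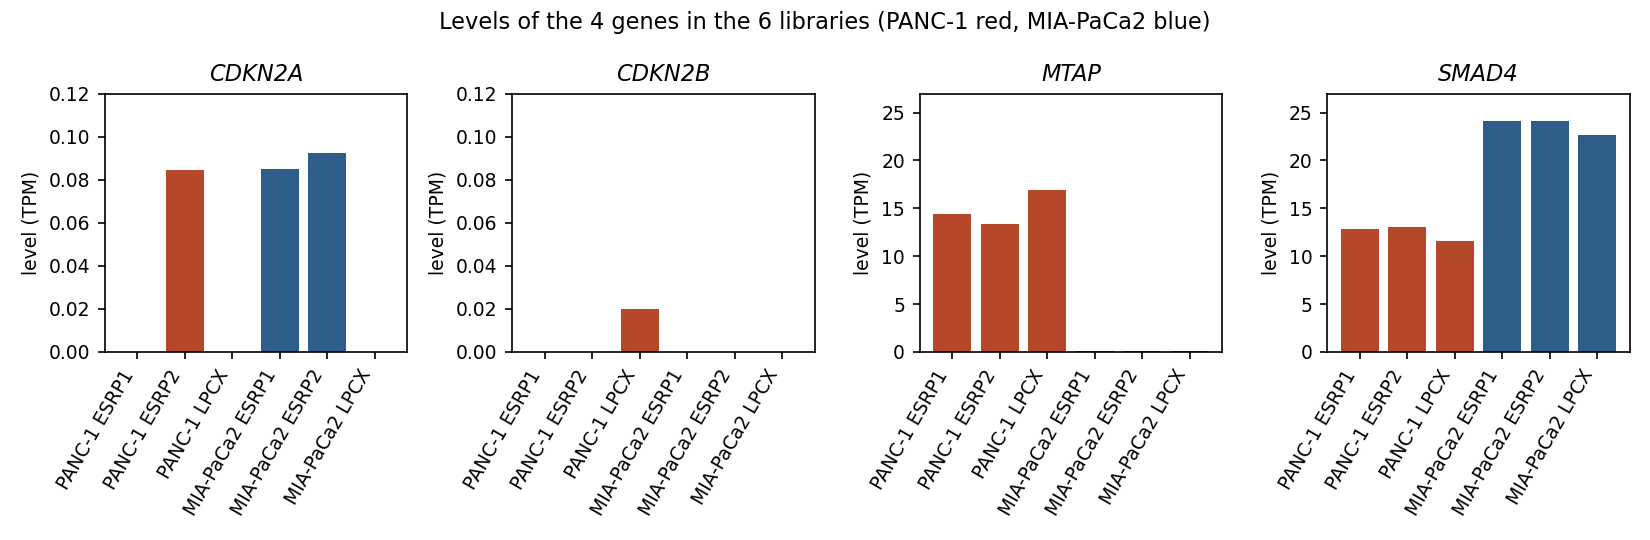
TPM (linear axis, one panel per gene with its own scale for the near-0 pair) of CDKN2A, CDKN2B, MTAP and SMAD4 in the 6 libraries, PANC-1 in red and MIA-PaCa2 in blue, 1 bar per library. CDKN2A and CDKN2B stay under 0.1 TPM, MTAP is at 13.4 TPM or more in PANC-1 and at 0.127 TPM or less in MIA-PaCa2, and SMAD4 is higher in every MIA-PaCa2 library than in any PANC-1 library.

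MTAP, the next gene along 9p21, was present in PANC-1 and nearly absent from MIA-PaCa2. Its RefSeq span is chr9:21802636-21941115 (GRCh38.p14), and its end lies 26.6 kb from the nearer, 3′ end of CDKN2A, while CDKN2A and CDKN2B are 7.58 kb apart. MTAP had 14.4 TPM in PANC-1 ESRP1, 13.4 TPM in PANC-1 ESRP2 and 16.9 TPM in PANC-1 LPCX, against 0.0822 TPM in MIA-PaCa2 ESRP1, 0.127 TPM in MIA-PaCa2 ESRP2 and 0.0555 TPM in MIA-PaCa2 LPCX. No library of one line came near the other line. In bulk libraries, fewer cells with an RNA and less RNA per cell cannot be told apart. The mean was 14.9 ± 1.81 TPM in PANC-1 and 0.0882 ± 0.0360 TPM in MIA-PaCa2 (SD, n = 3 each), a ratio of 169. The table holds a single MTAP transcript, NM_002451, so no transcript shares exist for this gene.

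On the log2(TPM + 1) scale, which understates the change of a gene near 0, MTAP was 3.86 higher in PANC-1 (SE 0.135, limma adjusted p = 7.58e-06, higher in 3 of 3 constructs). MTAP passed the filter of 5 TPM in 2 libraries through PANC-1 alone, so the filter favoured a difference and its call supports nothing. For comparison, 78.8% of the 11829 genes tested differed between the lines at an adjusted p under 0.05, 43.1% higher and 35.6% lower in PANC-1. A pattern like that of MTAP, at least 5 TPM in every PANC-1 library and under 0.5 TPM in every MIA-PaCa2 library, was held by 307 genes, and the opposite pattern by 118. With 1 library per line and construct, the spread behind these tests is the disagreement of the lines over the constructs, and it rests on 2 residual degrees of freedom.

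Neighbours of MTAP were also low in MIA-PaCa2. Along 9p, 41 consecutive genes from SLC24A2 to LINC01241, bounded by ACER2 and CAAP1, were under 1 TPM in every MIA-PaCa2 library, and 30 of them were listed at 0 in all of these. Many of them were low in PANC-1 too, as 31 of the 41 were under 1 TPM in every library of both lines and 19 were listed at 0 in all 6 libraries. Of all genes in the table, 47.8% were under 1 TPM in every MIA-PaCa2 library and 17.1% were listed at 0 in all 6 libraries. Of the 41, 8 genes were at 1 TPM or more in every PANC-1 library, namely FOCAD, IFNW1, IFNA21, KLHL9, MIR31HG, MTAP, LINC01239 and TUSC1. They lie between positions 20655625 and 25678444 of chromosome 9, a span of 5023 kb that holds 36 of the 41 genes. The shares of all genes at 0 in every MIA-PaCa2 library, or with the pattern of these 8, were not counted. The highest value inside the run in MIA-PaCa2 was 0.849 TPM, of CDKN2B-AS1, and 0.369 TPM, of LINC01239, without it. In PANC-1 the corresponding run under 1 TPM held 4 genes, CDKN2A-AS1, CDKN2A, CDKN2B-AS1 and CDKN2B, across 161 kb between MTAP and DMRTA1. Of all genes, 46.8% were under 1 TPM in every PANC-1 library.

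FOCAD, which encodes the focal adhesion protein focadhesin, had 6.22 to 6.75 TPM in PANC-1 and at most 0.0131 TPM in MIA-PaCa2. KLHL9, an adaptor of cullin ubiquitin ligases, had 18.2 to 19.3 TPM in PANC-1 and 0.0696 to 0.209 TPM in MIA-PaCa2. MIR31HG, the host gene of miR-31 and the nearest tested gene before MTAP, had 25.5 to 29.2 TPM in PANC-1 and at most 0.101 TPM in MIA-PaCa2. These 3 genes, like MTAP, passed the filter through PANC-1 alone. IFNW1, an interferon gene, had 2.20, 2.75 and 3.18 TPM in PANC-1 ESRP1, ESRP2 and LPCX and was listed at 0 in MIA-PaCa2, though reads of the near-identical interferon genes can be shared among copies. On the far side of CDKN2B, DMRTA1 had 0.924, 1.38 and 1.91 TPM in PANC-1 ESRP1, ESRP2 and LPCX and was listed at 0 in every MIA-PaCa2 library.

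Tested genes outside the run were present in MIA-PaCa2 and lower in PANC-1. CAAP1, an apoptosis regulator and the gene that bounds the run on the far side, had 8.25 to 10.0 TPM in PANC-1 and 19.0 to 20.8 TPM in MIA-PaCa2, a log2 difference of -1.01 (SE 0.0805, limma adjusted p = 0.000120). PLAA, a ubiquitin-binding protein, differed by -0.86 and IFT74, a ciliary transport protein, by -1.14. On the other side CNTLN, RRAGA, HAUS6, PLIN2, DENND4C and RPS6 had log2 differences between -3.24 and -0.61, all called lower in PANC-1. CNTLN, at 0.132 to 0.216 TPM in PANC-1, passed the filter through MIA-PaCa2 alone, so the filter favoured its call. ACER2, which bounds the run on this side and was under the filter, had 2.52 to 3.30 TPM in PANC-1 and 1.58 to 1.93 TPM in MIA-PaCa2, higher in every PANC-1 library. Over chromosome 9 as a whole 267 of 469 tested genes were lower and 144 higher, with a median of -0.44 against 0.08 for all genes. Of all genes tested, 35.6% were lower and 43.1% higher.

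**Figure D2:**
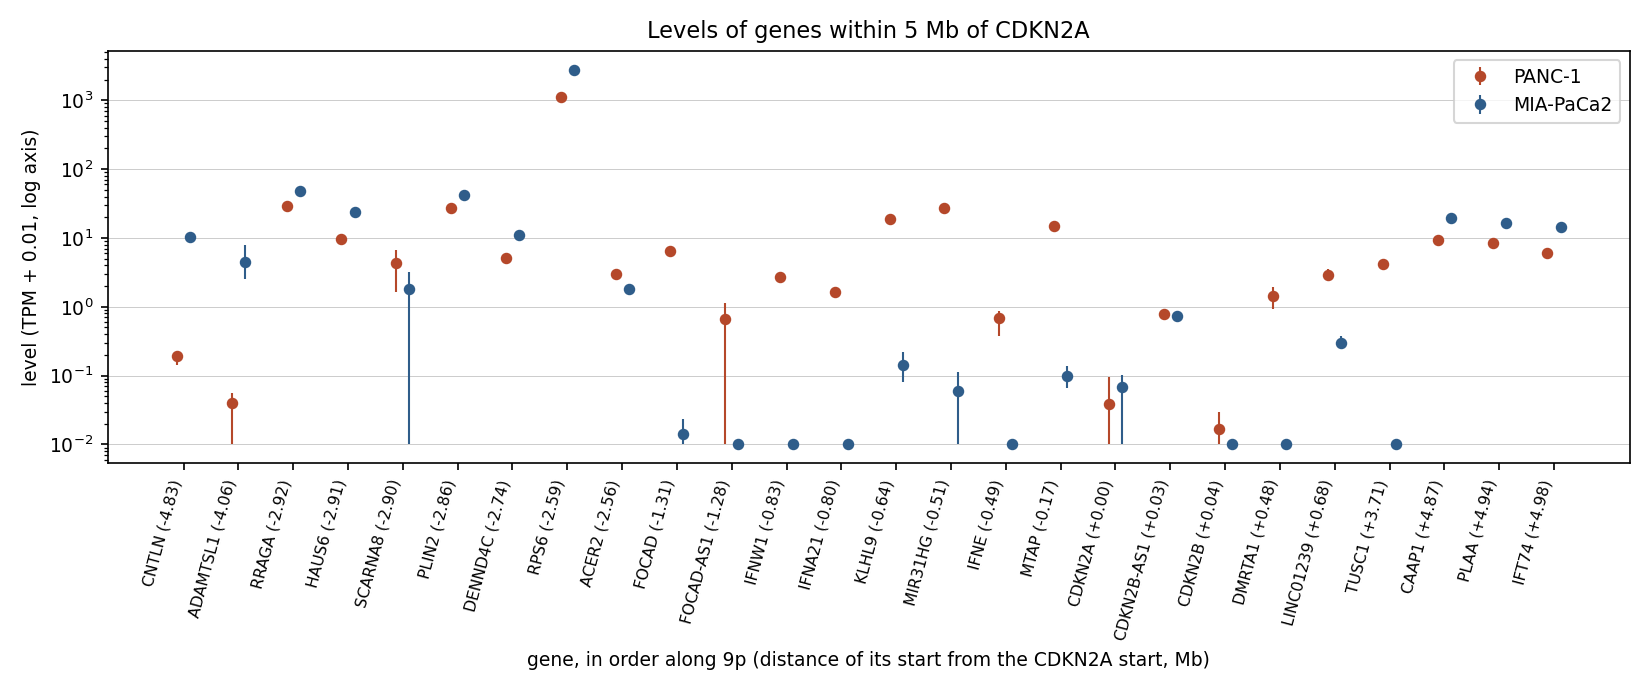
Mean TPM + 0.01 (log axis; vertical lines run from the lowest to the highest of the 3 libraries) of PANC-1 (red) and MIA-PaCa2 (blue), for genes within 5 Mb of CDKN2A that reach 0.5 TPM in a library, with CDKN2A and CDKN2B added, in order along the chromosome (distances between lower coordinates). From FOCAD to TUSC1 the MIA-PaCa2 points lie at 0.849 TPM or less, and in PANC-1 the points of CDKN2A and CDKN2B lie under 0.1 TPM. Other genes there that stay under 0.5 TPM in every library are not drawn, so CDKN2A and CDKN2B are not the only low genes of PANC-1. Apart from CDKN2A, CDKN2B and CDKN2B-AS1, the genes drawn there reached 0.5 TPM through PANC-1 alone.

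SMAD4 was expressed in both lines at a lower level in PANC-1. It lies at chr18:51030213-51085042 (GRCh38.p14), and its single transcript in the table, NM_005359, is drawn with 12 exons by GENCODE release 29. SMAD4 had 12.9 TPM in PANC-1 ESRP1, 13.0 TPM in PANC-1 ESRP2 and 11.6 TPM in PANC-1 LPCX, against 24.1 TPM in MIA-PaCa2 ESRP1, 24.1 TPM in MIA-PaCa2 ESRP2 and 22.7 TPM in MIA-PaCa2 LPCX. Every PANC-1 library was below every MIA-PaCa2 library. The mean was 12.5 ± 0.771 TPM in PANC-1 and 23.6 ± 0.824 TPM in MIA-PaCa2 (SD, n = 3 each), a ratio of 0.529. The log2 difference of TPM + 1 was -0.87 (SE 0.0676, 95% interval -1.04 to -0.70, limma adjusted p = 0.000109), lower in PANC-1 under 3 of 3 constructs. Of all genes tested, 35.6% were called lower in PANC-1 and 63.8% had a smaller absolute difference than SMAD4, so differences of this size were common between these lines.

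Most tested neighbours of SMAD4 were lower in PANC-1 too. ELAC1, a tRNA-processing enzyme and the nearest gene before SMAD4, had 3.37 to 3.77 TPM in PANC-1 and 7.88 to 9.51 TPM in MIA-PaCa2. Its log2 difference was -1.10 (SE 0.0954, limma adjusted p = 0.000169). The filter favoured this call, since ELAC1 passed it through MIA-PaCa2 alone. ME2, a mitochondrial malic enzyme expressed in both lines, differed by -0.88 (SE 0.0679, limma adjusted p = 0.000105). MEX3C, an RNA-binding ubiquitin ligase and the nearest gene after it, had 19.4 to 22.8 TPM in PANC-1 and 58.7 to 68.3 TPM in MIA-PaCa2, a log2 difference of -1.50. Within 5 Mb of SMAD4, 18 of 26 tested genes were called lower in PANC-1 and 6 higher, with a median of -0.47. Of these, ELAC1 and CCDC68 among the lower genes and LIPG, MBD2 and SMAD7 among the higher ones passed the filter through 1 line alone. The filter favoured their calls. The counts stand beside 80 lower and 61 higher of 159 on chromosome 18, with a median of -0.21, and 35.6% lower and 43.1% higher over all genes. ACAA2, a mitochondrial thiolase, differed by -1.45, DYM by -0.92, and RAB27B, a secretory vesicle GTPase, by -3.47. In the other direction LIPG, endothelial lipase, differed by 5.22 and SMAD7, the inhibitory SMAD, by 2.73, both under 1 TPM in every MIA-PaCa2 library. SMAD2, a receptor-regulated partner of SMAD4 encoded on the same arm, differed by -0.42 (SE 0.0731, limma adjusted p = 0.00277).

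**Figure D3:**
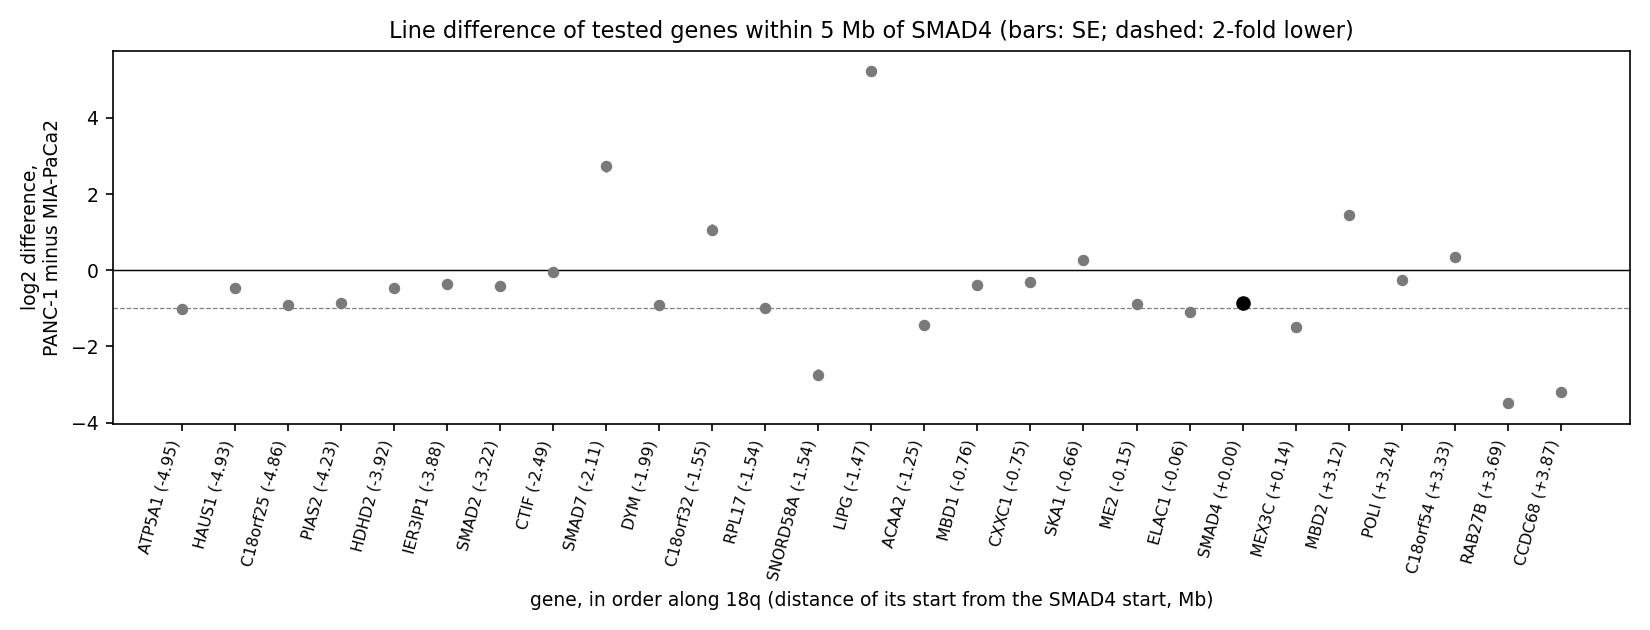
Log2 difference of TPM + 1, PANC-1 minus MIA-PaCa2, for SMAD4 (large black point) and the 26 tested genes within 5 Mb of it, in order along 18q, with SE bars that are mostly smaller than the points and a dashed line at 2-fold lower. SMAD4 at -0.87 sits beside ELAC1 at -1.10 and MEX3C at -1.50, and LIPG and SMAD7 lie furthest above 0.

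In order of level, SMAD4 stood alone at the top in MIA-PaCa2, the ranges of MTAP and CDKN2A overlapped near 0, and CDKN2B was listed at 0. In PANC-1 MTAP, at 13.4 to 16.9 TPM, and SMAD4, at 11.6 to 13.0 TPM, were close but did not overlap, while CDKN2A and CDKN2B overlapped near 0. Among genes at 5 TPM or more in every library, those whose log2(TPM + 1) followed MTAP most closely over the 6 libraries were CEP57L1, KPNA5 and UBE2Q2, with Pearson's r of 0.9997, 0.9997 and 0.9996. Those closest to SMAD4 were TGS1, DDHD2 and ARHGAP5, at 0.9999, 0.9997 and 0.9997. The libraries fall into 2 lines, and 696 of 9408 genes reached r = 0.99 with MTAP and 738 of 9407 with SMAD4.

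The effect of the overexpressed regulators on the members was then examined. SMAD4 differed little from LPCX. Within PANC-1 its log2 ratio to LPCX was 0.14 with ESRP1 and 0.15 with ESRP2, and within MIA-PaCa2 it was 0.08 with ESRP1 and 0.08 with ESRP2. All 4 ratios are positive, as are those of 68.8% and 67.2% of genes in PANC-1 and 61.7% and 60.2% in MIA-PaCa2, and 2-fold was reached by 1.51% and 1.96% of genes in PANC-1 and 1.28% and 1.62% in MIA-PaCa2. Those shares are 168 and 218 genes in PANC-1 and 138 and 176 in MIA-PaCa2, but 16 and 28 in PANC-1 and 25 and 32 in MIA-PaCa2 with coding transcripts alone. Over both lines limma gave a log2 difference of 0.11 for ESRP1 minus LPCX (SE 0.0828, 95% interval -0.10 to 0.32, adjusted p = 0.701) and 0.12 for ESRP2 minus LPCX (interval -0.09 to 0.33, adjusted p = 0.525). The paralogs differed by -0.01 (interval -0.22 to 0.20, adjusted p = 0.995). A p above the threshold does not show equal levels. The number of calls over all genes was small, 0.00845% for ESRP1, 0.0169% for ESRP2 and 0.00845% for ESRP1 minus ESRP2, and both comparisons with LPCX share the LPCX libraries.

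MTAP was lower with both regulators in PANC-1. The 14.4 TPM of PANC-1 ESRP1 and the 13.4 TPM of PANC-1 ESRP2, against 16.9 TPM of PANC-1 LPCX, are log2 ratios of -0.22 and -0.32. These sit at the 8.48th and 7.94th percentile of all genes of the line, and with 1 library each they carry no test. In MIA-PaCa2 all MTAP levels were under 5 TPM, so no ratio is given there. Over both lines the log2 difference was -0.09 for ESRP1 minus LPCX (SE 0.166, 95% interval -0.51 to 0.32, limma adjusted p = 0.865). It was -0.11 for ESRP2 minus LPCX (interval -0.53 to 0.31, limma adjusted p = 0.772) and 0.02 for ESRP1 minus ESRP2 (limma adjusted p = 0.995). These contrasts average PANC-1 with MIA-PaCa2 levels near 0, whose ratios the pseudocount holds near 0, so they cannot decide an effect on MTAP. CDKN2A was above 0 in 3 of the 4 ESRP libraries and in neither LPCX library, at levels under 0.1 TPM that allow no ratio.

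**Figure D4:**
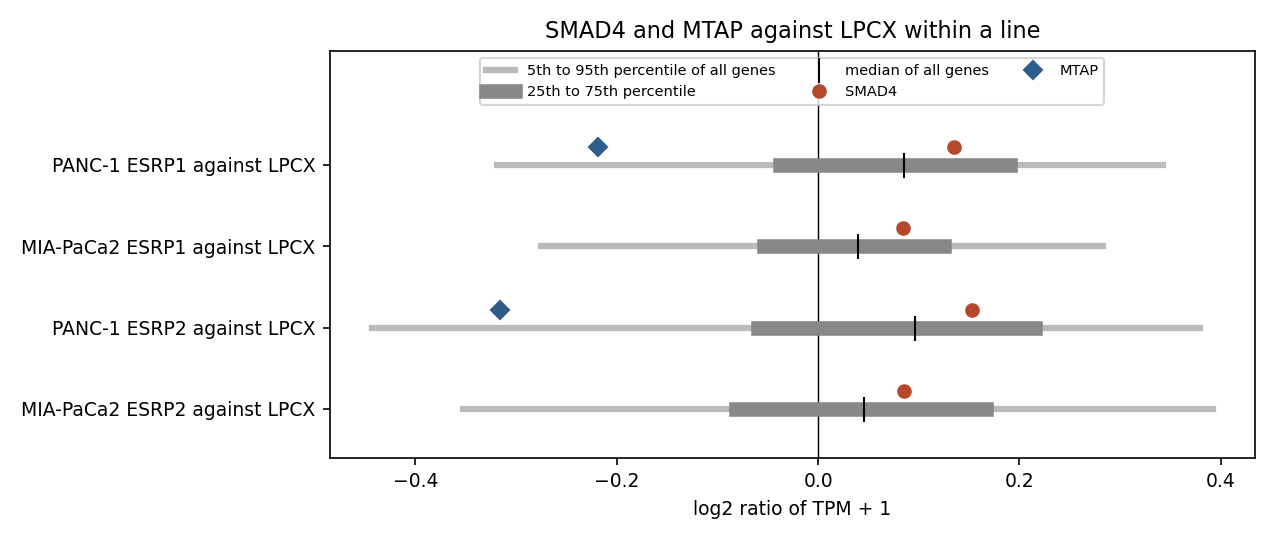
Log2 ratio of TPM + 1 to the LPCX library of the same line for SMAD4 (circles) and MTAP (diamonds, PANC-1 alone), over the spread of all genes at 5 TPM or more in either library (grey bars, 5th to 95th and 25th to 75th percentile, and a tick at the median). SMAD4 lies within the middle bar in all 4 comparisons, and MTAP lies left of it at -0.22 and -0.32.

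Genes of the pathways around the members were then set beside them. In the p16-RB list of CDK inhibitors, cyclins, CDKs, RB proteins and E2F factors, 10 of 21 tested genes were higher in PANC-1 and 6 lower. The median log2 difference was 0.14, against 0.08 for all genes. Of all genes tested, 43.1% were higher and 35.6% lower, so these counts alone do not set the list apart. E2F5, a repressor-type E2F, had 33.8 to 38.9 TPM in PANC-1 and 6.58 to 7.80 TPM in MIA-PaCa2 (log2 difference 2.17, SE 0.0761, limma adjusted p = 7.58e-06). CDKN2C, which encodes the related CDK4 and CDK6 inhibitor p18INK4c, had 80.5 to 85.2 TPM in PANC-1 and 23.7 to 30.5 TPM in MIA-PaCa2 (1.63). It was thus far above CDKN2A and CDKN2B in both lines, on the TPM scale. CDKN2D, a further INK4 gene, had 11.8 to 14.9 TPM in PANC-1 and 9.82 to 13.3 TPM in MIA-PaCa2 (0.22). Lower in PANC-1 were RBL2, the RB relative p130 (-1.35), CDKN1B, the inhibitor p27 (-0.99), and TFDP2, an E2F partner (-0.85), while RB1 itself differed by -0.21 (SE 0.0629, adjusted p = 0.0261).

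In the ARF-MDM2 list, 5 of 15 tested genes were higher in PANC-1 and 5 lower, with a median of -0.08. The shares over all genes tested were 43.1% higher and 35.6% lower. MDM2, the p53 ubiquitin ligase that p14ARF inhibits, had 22.01 to 22.8 TPM in PANC-1 and 12.9 to 15.2 TPM in MIA-PaCa2 (0.67, SE 0.0764, limma adjusted p = 0.000505). HUWE1, a ubiquitin ligase that p14ARF also binds, differed by 0.50, and TP53BP1, a DNA break response protein, by 0.79. BBC3, the apoptosis gene PUMA, differed by -1.16, a call that the filter favoured because BBC3 passed it through MIA-PaCa2 alone. PLK3, a stress kinase, differed by -0.93 and CCNG1, cyclin G1, by -0.57. MDM4 (0.03) and GADD45A (-0.09) did not pass the threshold.

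Of the TGF-beta, BMP and SMAD signalling list, 16 of 28 tested genes were higher in PANC-1 and 7 lower, with a median of 0.68. SMAD4 is not counted in it. Over all genes tested 43.1% were higher and 35.6% lower. INHBB, an activin subunit, had 37.4 to 53.9 TPM in PANC-1 and 0.830 to 1.14 TPM in MIA-PaCa2 (log2 difference 4.56, SE 0.143, limma adjusted p = 5.56e-06). TGFBR2, the type II TGF-beta receptor, had 32.1 to 36.8 TPM in PANC-1 and 0.273 to 0.736 TPM in MIA-PaCa2 (4.55). TGFBR1, its type I partner, had 11.6 to 16.1 TPM in PANC-1 and 13.9 to 18.9 TPM in MIA-PaCa2 (-0.11, limma adjusted p = 0.317). SMAD3, a receptor-regulated SMAD, differed by 2.44, LTBP1, which holds latent TGF-beta in the matrix, by 4.13, and SMURF2, a ubiquitin ligase for SMADs and receptors, by -2.66. Lower in PANC-1 with it was ENG, a co-receptor (-1.73), and ACVR1 (1.70) and ACVR1B (0.94), type I receptors of the BMP and activin branches, were higher. Of the 16 higher genes, 7 (INHBB, LTBP1, SKIL, SMAD6, SMAD7, TGFB2 and TGFBR2) were under 5 TPM in every MIA-PaCa2 library and passed the filter through PANC-1 alone, and TGFBR3 among the lower ones passed through MIA-PaCa2 alone. The filter favoured their calls, so the counts and the median of this list carry little. Over all genes the same held for 1024 of 5102 higher and 751 of 4217 lower calls.

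Of the SMAD target genes, 9 of 14 tested were higher in PANC-1 and 4 lower, with a median of 1.26. Among all genes tested 43.1% were higher and 35.6% lower. CTGF, SKIL, SMAD7 and SNAI1 among the higher genes passed the filter through PANC-1 alone and COL4A1 among the lower ones through MIA-PaCa2 alone. The filter favoured these 5 calls, so the counts and the median of this list carry little too. CTGF, a matrix signalling protein, had 88.9 to 118 TPM in PANC-1 and 0.981 to 1.91 TPM in MIA-PaCa2 (log2 difference 5.31, SE 0.192, limma adjusted p = 8.35e-06). TGFBI, a matrix protein named for its induction, differed by 3.28, SMAD7, which is also in the signalling list, by 2.73, LTBP2 by 2.69 and BHLHE40 by 2.59. In the other direction COL4A1, a basement membrane collagen, differed by -2.48, and the BMP targets ID3 and ID2 by -2.00 and -1.14. COL4A1 and ID3 were picked out after their values were seen. The lines also differ in markers of other cells. The 4 fibroblast genes summed to 66.7 to 108 TPM in PANC-1 and 0.524 to 0.879 TPM in MIA-PaCa2, of which 1 gene, COL1A1, reached 1 TPM in every PANC-1 library and DCN was listed at 0 in all PANC-1 libraries. Their part in the target gene differences was not tested.

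Methionine salvage and polyamine genes, the pathway of MTAP, were divided in direction. Of 21 tested, 6 were higher in PANC-1 and 8 lower, with a median of -0.10. For this list and the PRMT5 list below, the shares over all genes tested are 43.1% higher and 35.6% lower. ADI1, a later enzyme of the salvage cycle, had 62.1 to 70.2 TPM in PANC-1 and 229 to 286 TPM in MIA-PaCa2 (log2 difference -1.94, SE 0.0584, limma adjusted p = 4.94e-06). APIP, an enzyme of the same cycle, differed by -0.59 and AHCY, S-adenosylhomocysteine hydrolase, by -0.77. The polyamine regulators OAZ2, an antizyme, and AZIN1, an antizyme inhibitor, differed by 1.32 and 1.14. For the PRMT5 complex, 2 of 8 tested genes were higher and 3 lower, with a median of -0.02. PRMT5, the arginine methyltransferase that the MTAP substrate inhibits, had 193 to 223 TPM in PANC-1 and 164 to 178 TPM in MIA-PaCa2 (0.30, SE 0.0554, limma adjusted p = 0.00391). COPRS, a histone-directing subunit, differed by 1.60, and CLNS1A, a substrate adaptor, by -0.65, while PRMT1 (-0.82) and PRMT7 (-0.61), related enzymes, were lower.

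**Figure D5:**
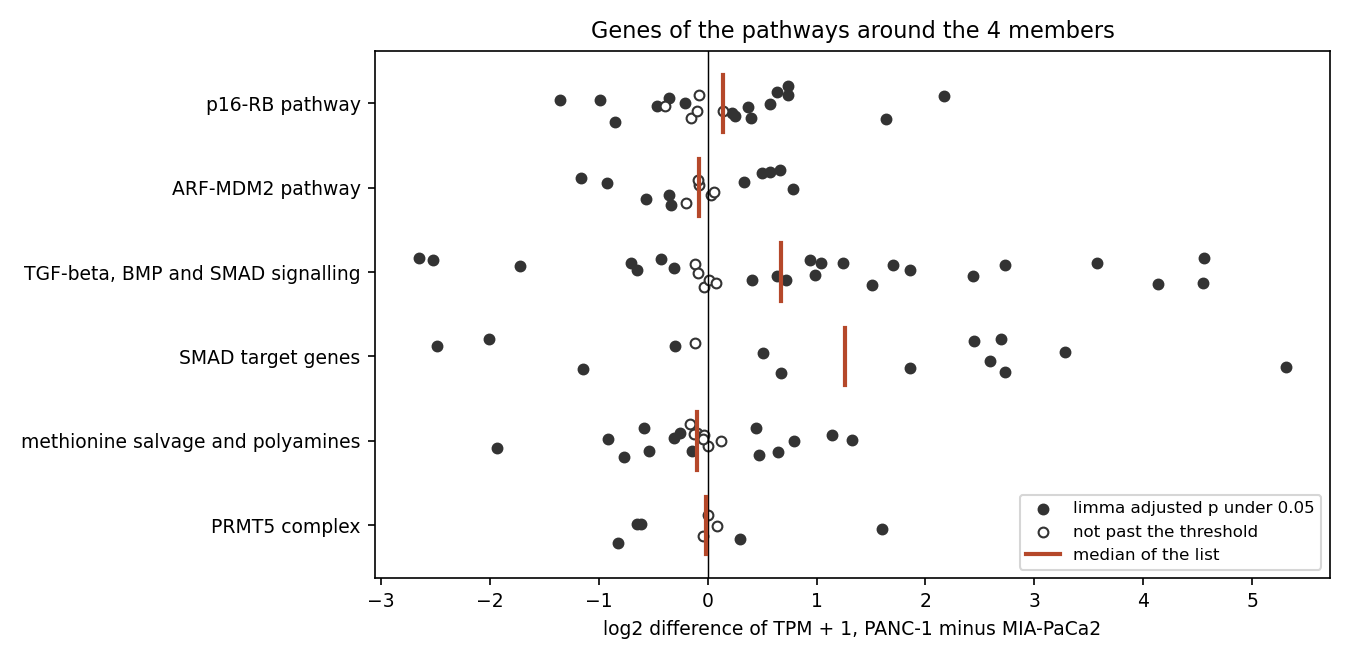
Log2 difference of TPM + 1, PANC-1 minus MIA-PaCa2, of each tested gene in the 6 pathway lists (filled points passed limma's adjusted p of 0.05, open points did not, red ticks are medians). The median lies at 1.26 for SMAD target genes and at 0.68 for TGF-beta signalling, and between -0.10 and 0.14 for the other lists. Of the higher genes, 4 of 9 SMAD targets and 7 of 16 in TGF-beta signalling passed the filter through PANC-1 alone, so these medians carry little.

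Against LPCX, none of the genes in these 6 lists passed limma's adjusted threshold in the 3 construct contrasts. At an unadjusted p under 0.05 the counts for ESRP1 were 4 of 21 in the p16-RB list, 0 of 15 in ARF-MDM2, 3 of 28 in TGF-beta signalling, 1 of 14 SMAD targets, 1 of 21 in methionine salvage and 0 of 8 in the PRMT5 list. For ESRP2 they were 4 in the p16-RB list, 3 in ARF-MDM2, 3 in TGF-beta signalling, 2 SMAD targets, 4 in methionine salvage and 0 in the PRMT5 list. For ESRP1 minus ESRP2 there was 1 in ARF-MDM2, 2 in methionine salvage and 0 in the others. Across all 11829 genes the unadjusted counts were 820 for ESRP1, 1634 for ESRP2 and 497 for ESRP1 minus ESRP2. A 2-fold ratio was reached by 2 genes of the lists, both picked out after their values were seen. CDKN1A, the p21 inhibitor of the p16-RB list, had 37.5 TPM in MIA-PaCa2 ESRP1 and 15.7 TPM in MIA-PaCa2 LPCX (log2 ratio 1.20), but 0.20 as the ratio in PANC-1. TGFBI had 26.9 TPM in MIA-PaCa2 ESRP2 and 12.7 TPM in MIA-PaCa2 LPCX (1.03), and -0.08 as the ratio in PANC-1.

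Below that step stood the largest ratios in 1 direction in both lines, picked as the extremes of their lists. With ESRP1 the 5th to 95th percentile of all genes ran from -0.32 to 0.34 in PANC-1 and from -0.28 to 0.28 in MIA-PaCa2. With ESRP2 it ran from -0.44 to 0.38 in PANC-1 and from -0.35 to 0.39 in MIA-PaCa2. TGFBR1 with ESRP2 lay above this range in both lines. With ESRP1, CDKN2D had log2 ratios of 0.32 in PANC-1 and 0.40 in MIA-PaCa2, and ACVR1B, an activin receptor, 0.38 and 0.26. RB1 had 0.30 and 0.25 with ESRP1 and 0.28 and 0.35 with ESRP2, and TGFBR1 0.44 and 0.42 with ESRP2. ID2 had -0.51 and -0.19 with ESRP1 and -0.57 and -0.14 with ESRP2, the lowest of the SMAD targets with 1 sign in both lines, ranked by the ratio nearer to 0. PRMT5 had 0.20 and 0.12 with ESRP1 and 0.21 and 0.11 with ESRP2, and AZIN1 0.16 and 0.31 with ESRP1 and 0.25 and 0.30 with ESRP2. In each pair the PANC-1 ratio is given before that of MIA-PaCa2, and none of these ratios has a replicate.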

How the data were processed

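Per the labels, 6 libraries were prepared with a TruSeq mRNA kit. The authors deposited TPM for RefSeq transcripts, made with Salmon on GRCh38 (hg38) per the submitters' processing notes (versions not stated). The deposited table was read as a score, because 8664 of its 67792 lines repeat a transcript and raise a column above 1000000, to which each library sums once repeats are dropped. TPM keeps no depth, so counting intervals cannot be had. MIA-PaCa2 LPCX (misspelled header) and MIA-PaCa2 ESRP2 (headed ESRP12) were identified by elimination.

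TPM were summed per gene. limma 3.58.1 (R 4.3.3) with a trend was fitted to log2(TPM + 1) with line and construct as terms, over 11829 genes that reach 5 TPM in 2 or more libraries, with Benjamini-Hochberg adjustment at 0.05, and was tested on simulated data. Ratios within a line used genes at 5 TPM in either library. MTAP and SMAD4 have 1 transcript each, so transcript share tests gave no value. Members, lists, windows and the naming rule were chosen with earlier results of these data known. Named from each list were the 3 largest line differences, up to 5 called genes with the lowest adjusted p, and the highest and lowest ESRP ratios with 1 sign in both lines, most of which the text gives. RefSeq positions matched 98.9% of genes. The labels give no batch.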

Additional observations from a re-analysis of the deposited data

Results flagged for a closer look

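The MTAP ratios to LPCX had opposite signs in the lines with each regulator. With ESRP1 its log2 ratio to LPCX was -0.22 in PANC-1 and 0.04 in MIA-PaCa2, a difference of -0.25. With ESRP2 it was -0.32 in PANC-1 and 0.09 in MIA-PaCa2, a difference of -0.41. With 1 library per line and construct the difference was not tested, and the MIA-PaCa2 values rest on MTAP levels of 0.127 TPM or less under a pseudocount of 1, too low to show a direction.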

How the results depend on the processing

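The line differences of SMAD4 and MTAP kept their direction and call under all 13 alternatives. SMAD4 lay between -0.91 and -0.85 (highest limma adjusted p 0.00152) and MTAP between 3.75 and 6.33 (0.000220). In every fit with a filter MTAP passed it through PANC-1 alone, so its kept call supports nothing there. Neither SMAD4 nor MTAP passed the threshold in a construct contrast under any alternative, where signs near 0 turned. For MTAP these contrasts include MIA-PaCa2 levels near 0, so they cannot decide an effect on it. With log2(TPM + 0.1), MTAP was 0.10 for ESRP2 minus LPCX and -0.11 for ESRP1 minus ESRP2, and with median-ratio scaling SMAD4 was 0.018 for ESRP1 minus ESRP2. The cause was not tested. With single libraries left out, MTAP ranged from -0.26 to 0.075 for ESRP1, from -0.28 to 0.055 for ESRP2 and from -0.12 to 0.16 for ESRP1 minus ESRP2. SMAD4 ranged from -0.031 to 0.012 for ESRP1 minus ESRP2.

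Counts of called genes moved more. The line count was 9319, against 8282 to 9024 with a library left out. The ESRP1 count of 1 gene, ESRP1 itself, ranged from 0 to 1 with a library left out. The ESRP2 count of 2 ranged from 0 to 29, with 29 when MIA-PaCa2 ESRP2 was omitted and 15 when PANC-1 ESRP2 was, and ESRP1 minus ESRP2 from 0 to 32, with 32 when PANC-1 ESRP2 was omitted and 16 when MIA-PaCa2 ESRP2 was. Without the replicate block, here the line term, all 3 counts were 0. The ESRP2 count was also 0 with log2(TPM + 0.1), with at least 1 TPM in 2 libraries, with no filter and with coding transcripts alone, and 1 without the trend. Genes at 2-fold numbered 16, 25, 28 and 32 with coding transcripts alone, against 168, 138, 218 and 176 with all, for ESRP1 in PANC-1 and MIA-PaCa2 and ESRP2 in PANC-1 and MIA-PaCa2, which drops noncoding RNAs by construction. The tests of transcript shares gave no value, since MTAP and SMAD4 have 1 transcript each. A gene left with 1 library in an arm is assumed to vary like the others. Without read counts, the levels of CDKN2A and CDKN2B under 0.1 TPM have no detection limit.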
